A study of Mus musculus with 73 samples.

Results

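Nodal and bone morphogenetic protein (Bmp) signalling in the mouse embryo at embryonic day 6.5 was followed through 10 genes of the 30546 in the deposited table: Nodal, Tdgf1, Lefty1, Lefty2, Cer1, Furin, Pcsk6, Bmp2, Bmp4 and Bmp7. The genes were chosen by name for their part in the pathways, and all 10 were found. RNA had been sequenced from the epiblast, which forms the embryo proper, and from the extraembryonic ectoderm (ExE), a trophoblast tissue of the future placenta. There were 72 libraries, 35 of epiblast and 37 of ExE, each from one tissue of one embryo. The question the design puts to these genes is how their RNA differed between the tissues and between wild-type embryos and embryos lacking an epigenetic repressor.

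Wild-type embryos came from both directions of a cross between BDF1 and CAST mice. In the direction called Bdf1xCast the mother was BDF1 and CAST sperm was injected into the egg, and 7 embryos gave both tissues. In the direction called CastxBdf1 the mother was CAST and the embryos came from natural mating, and 4 embryos gave both tissues, so direction and mode of fertilisation cannot be told apart. All knockouts were made in Bdf1xCast zygotes by injection of Cas9 mRNA with several guide RNAs, and the blastocysts were carried by CD-1 females. Each knockout embryo therefore carried its own edits, and an injected embryo can be a mosaic of edited cells. The targets were Dnmt1, the maintenance DNA methyltransferase (3 epiblast and 3 ExE libraries), G9a and Glp together, the H3K9 methyltransferases encoded by Ehmt2 and Ehmt1 (6 and 8), Rnf2, the catalytic subunit of Polycomb repressive complex 1 (6 and 5), and Eed, a core subunit of Polycomb repressive complex 2 (9 and 10). Every knockout was compared with the 7 wild-type Bdf1xCast embryos, so the knockout comparisons share their controls. The visceral endoderm, the outer layer of the embryo, had been removed with enzyme and a narrow capillary before RNA was prepared.

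Nodal is a secreted ligand of the TGF-beta family that keeps the epiblast pluripotent, patterns it and starts the primitive streak. It binds Activin receptors together with the co-receptor encoded by Tdgf1 (Cripto), it is cut from its precursor by the proprotein convertases Furin and Pcsk6 (Pace4), and it induces its own antagonists Lefty1 and Lefty2. Cer1 is an antagonist secreted by the anterior visceral endoderm and later by the definitive endoderm. Bmp4 from the ExE signals to the neighbouring epiblast, where it upholds Nodal and Wnt3 expression and induces the primordial germ cells. Bmp2 is known from the visceral endoderm, and Bmp7 is a further ligand of the family.

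The promoters of Nodal and Bmp4 are shown because the largest part of the knockout results below concerns these ligands and because DNA methylation and the Polycomb complexes are known to act at CpG dinucleotides and CpG-rich DNA. Each sequence is the 250 bases before the annotated start, from RefSeq (GRCm38.p6), read along the strand of the gene, with every CpG in capitals. The Nodal stretch is chr10:61417722-61417971 on the + strand and the Bmp4 stretch is chr14:46390670-46390919 on the - strand.
Nodal: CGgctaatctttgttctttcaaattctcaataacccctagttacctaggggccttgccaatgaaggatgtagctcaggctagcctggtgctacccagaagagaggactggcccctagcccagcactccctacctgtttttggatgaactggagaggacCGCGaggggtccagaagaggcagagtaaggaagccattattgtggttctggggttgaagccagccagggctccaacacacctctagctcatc
Bmp4: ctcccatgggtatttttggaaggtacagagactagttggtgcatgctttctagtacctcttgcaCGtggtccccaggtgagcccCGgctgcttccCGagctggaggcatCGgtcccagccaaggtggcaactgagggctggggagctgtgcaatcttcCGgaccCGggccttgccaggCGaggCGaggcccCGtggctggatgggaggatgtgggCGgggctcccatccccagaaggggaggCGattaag
The Nodal stretch holds 3 CpGs at a GC content of 53.2%, and 29.0% of the 32851 promoters in the RefSeq table hold fewer. The Bmp4 stretch holds 11 CpGs at 63.2% GC, and 64.4% of promoters hold fewer, against a median of 6. Searched on both strands, neither stretch held TGTGGATT, the motif of the Nodal effector FoxH1, which 0.72% of promoters hold, or the Smad palindrome GTCTAGAC, which 0.17% hold. These are descriptions of these windows, and the enhancers of both genes lie outside them.

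Library totals ran from 1141414 to 17653087 reads over strain polymorphisms, with a median of 2711272. Only reads that lie over a polymorphism between BDF1 and CAST were counted, so the level of a gene, given as CPM (counts scaled to a common library total), depends on how many polymorphisms it holds and cannot be compared between genes. Of 7 epiblast markers tested between the wild-type tissues, 6 were lower in ExE in both crosses (Fgf5, Otx2, Nanog and others) and 1, Utf1, was higher there (191 ± 71.7 against 77.8 ± 39.5 CPM in Bdf1xCast, edgeR adjusted p = 0.00106). All 8 epiblast markers summed to between 3125 and 4634 CPM in wild-type Bdf1xCast epiblasts and to between 734 and 1212 CPM in ExE, most of the latter from Dnmt3b (752 ± 179 CPM) and Utf1, while 7 ExE markers (Elf5, Cdx2 and others) summed to between 41.3 and 259.9 CPM in the epiblasts and to between 539 and 1133 CPM in ExE. In the knockouts the targeted RNA was low in all Eed libraries (9.38 ± 5.59 CPM in epiblast, SD, n = 9, against 157 ± 54.5, n = 7) and in all 3 Dnmt1 epiblasts (8.02 ± 3.35 against 33.0 ± 5.64 CPM). It was not below the second-lowest wild-type library in 1 of 3 libraries labelled Dnmt1 ExE and 2 of 6 labelled G9a-Glp epiblast. The same held for 3 of 5 labelled Rnf2 ExE. The calls and named differences in those groups are given below with and without these libraries. A G9a-Glp library counted as low if either Ehmt1 or Ehmt2 was low. In G9a-Glp epiblasts Ehmt1 was at 21.2 ± 17.0 against 29.3 ± 9.53 CPM in the wild type. Ehmt2 was at 3.07 ± 1.43 against 3.07 ± 2.27 CPM, so its mean was not lower. Only 2 of 6 of these epiblasts were below the lowest wild-type library for either gene. In Rnf2 epiblasts Rnf2 RNA was at 26.5 ± 6.42 against 45.3 ± 9.58 CPM in the wild type, with 4 of 6 below the lowest wild-type library. Rnf2 RNA was also at 32.8 (Dnmt1), 33.3 (G9a-Glp) and 32.3 CPM (Eed) in the other knockout epiblasts. Of the Rnf2 ExE libraries, 0 of 5 were below the lowest wild-type library. RNA of an edited gene can persist, so its level is only a partial check of the label. Visceral endoderm markers (12 genes, Ttr and others) were present in some epiblasts. Their sum was 502 CPM in wild-type Bdf1xCast embryo 8 against 5.03 to 85.0 CPM in the other 6 embryos of that cross, and 2561 CPM in wild-type CastxBdf1 embryo 2.

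The tissues of the wild type divided the pathway. Nodal and its co-receptor Tdgf1 were read in the epiblast and hardly in the ExE, Bmp4 was read in the ExE and hardly in the epiblast, and Bmp7 was present in both. In Bdf1xCast embryos 4 of the 10 genes had enough reads in either tissue for the test across all genes (edgeR's quasi-likelihood test, with Benjamini-Hochberg adjustment over all genes tested and a threshold of 0.05), and 3 of them differed, beside 56.7% of all genes tested. In CastxBdf1 embryos 6 were tested and all 6 differed, beside 45.0% of all genes. Here and below, fewer cells of a type and less RNA per cell cannot be told apart, since each library is a whole piece of tissue.

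Nodal (chr10:61417972-61425337, mm10) was at 11.6 CPM in the lowest Bdf1xCast epiblast, 19.4 at the median and 51.8 in the highest, and at 0, 0.328 and 3.94 CPM in the ExE of these embryos. The groups did not overlap, and Nodal was lower in ExE by a log2 fold change of -4.63 ± 0.60 (SE, edgeR adjusted p = 3.2e-06). In the CastxBdf1 embryos the epiblasts had 26.7, 112, 19.3 and 36.6 CPM, all above the ExE range of 0.850 to 1.37 CPM (-5.29 ± 0.59, edgeR adjusted p = 1.64e-05). The library at 112 CPM is the epiblast of embryo 2, the library with the highest visceral endoderm sum, and the part of that tissue in its Nodal level was not tested. Tdgf1 (chr9:110939608-110946158) stood at 159 to 1125 CPM in Bdf1xCast epiblasts, with a median of 367, and at 0 to 6.67 CPM in ExE. Again no library overlapped between tissues, and the difference was the largest of those tested among the 10 genes in both crosses, -7.54 ± 0.67 in Bdf1xCast and -8.81 ± 0.59 in CastxBdf1 (edgeR adjusted p = 3.48e-08 and 3.08e-07).

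The antagonists Lefty1 (chr1:180935039-180938401) and Lefty2 (chr1:180893108-180899107) were also epiblast genes. In the ExE of the 7 Bdf1xCast embryos only 2 reads of Lefty1 and 7 of Lefty2 were counted, against 119 and 1663 reads in their epiblasts. In the CastxBdf1 embryos Lefty1 was at 7.42, 3.81, 6.56 and 5.79 CPM in the epiblasts and at most 0.549 CPM in ExE (-4.58 ± 0.70, edgeR adjusted p = 0.000196), and Lefty2 differed by -7.78 ± 1.20 (adjusted p = 0.000209). Cer1 (chr4:82881751-82885151) had no read in any wild-type ExE library. Against a floor of 3 reads over the group, its level was at least 17.2-fold higher in Bdf1xCast epiblasts and at least 7.68-fold higher in CastxBdf1 epiblasts, and these bounds cover counting error only. Bmp2 (chr2:133552159-133562896), at 0.362 to 3.81 CPM in CastxBdf1 epiblasts and 0 in their ExE, was at least 7.68-fold higher in the epiblasts by the same floor. Of its 17 reads in these epiblasts, 10 came from embryo 2, the library with the highest visceral endoderm sum. In Bdf1xCast the highest Bmp2 level, 3.81 CPM, was in embryo 8, which had the highest such sum of that cross. The part of that tissue in the Bmp2 reads was not tested.

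Bmp4 (chr14:46383525-46390669) had the opposite pattern. The ExE of Bdf1xCast embryos held 27.7 CPM at the lowest, 73.7 at the median and 93.8 at the highest, and no epiblast exceeded 1.21 CPM, a log2 difference of 6.52 ± 0.40 (edgeR adjusted p = 3.56e-10). In the other cross the ExE had 85.5, 11.8, 68.0 and 47.8 CPM against 0.742 to 2.67 CPM in epiblasts (4.90 ± 0.59, adjusted p = 3.46e-05). The convertase Pcsk6 (chr7:65862136-66050386) was low but present in every wild-type ExE, at 0.715 to 5.96 CPM in Bdf1xCast and 0.806 to 2.27 CPM in CastxBdf1, while 1 read was counted in the 11 wild-type epiblasts together. In CastxBdf1 it was at least 4.92-fold higher in ExE. Furin (chr7:80389194-80405441) had between 0 and 5 reads in each wild-type group, too few for a statement on tissue. Bmp7 (chr2:172868012-172940321) reached a median of 14.9 CPM in Bdf1xCast epiblasts and 14.3 CPM in their ExE, with overlapping libraries and no difference past the threshold (0.06 ± 0.55, edgeR adjusted p = 0.933), whereas in CastxBdf1 it was 2.05 ± 0.59 higher in ExE (adjusted p = 0.0127). Between the crosses none of the members tested passed in either tissue (5 in epiblast, beside 0.0103% of all genes called, and 2 in ExE, beside 1.06%). At an unadjusted p under 0.05 the count by edgeR was 1 in epiblast and 0 in ExE. The 1 is Nodal in epiblast, which was lower in Bdf1xCast than in CastxBdf1 by -1.17 ± 0.42 (adjusted p = 0.606).

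**Figure D1:**
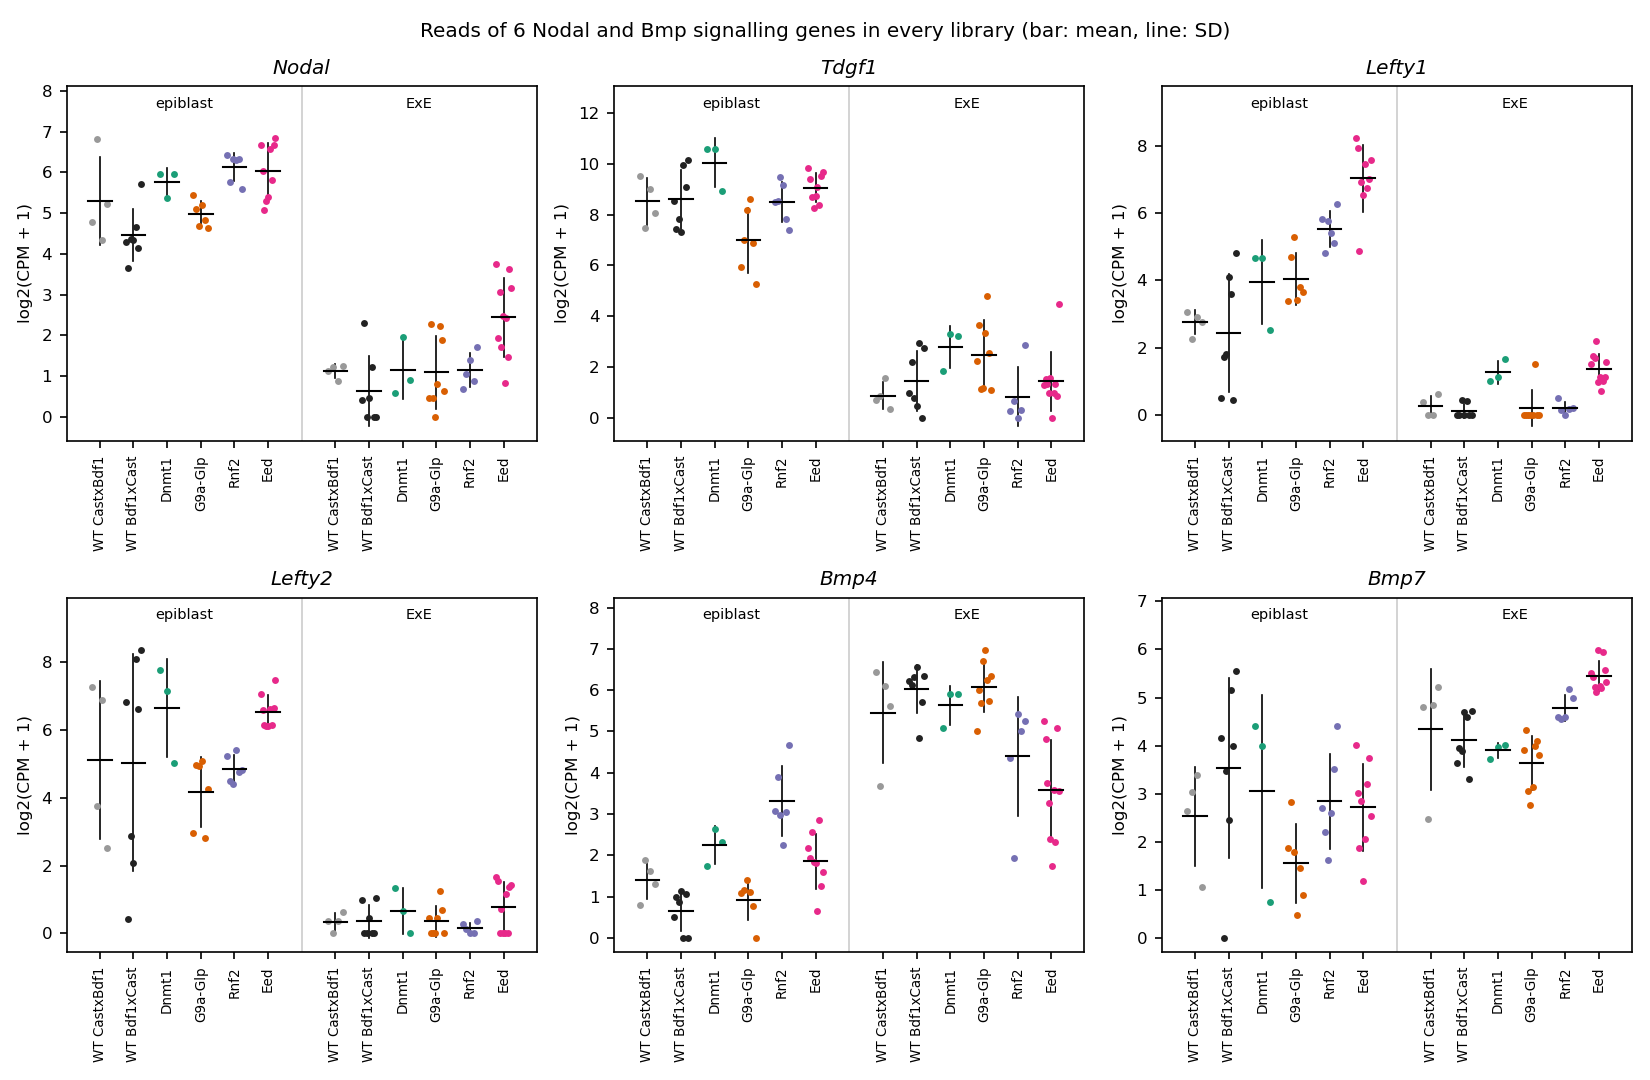
Level of 6 genes in each of the 72 libraries, as log2(CPM + 1), with epiblast groups on the left and ExE groups on the right of each panel. Points are libraries, bars are group means and lines 1 SD. Nodal, Tdgf1, Lefty1 and Lefty2 lie high in epiblast and Bmp4 in ExE, Lefty1 stands above the wild type in all 9 Eed epiblasts, and Bmp4 in ExE is below all wild-type Bdf1xCast libraries in 8 of 10 Eed libraries.

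**Figure D2:**
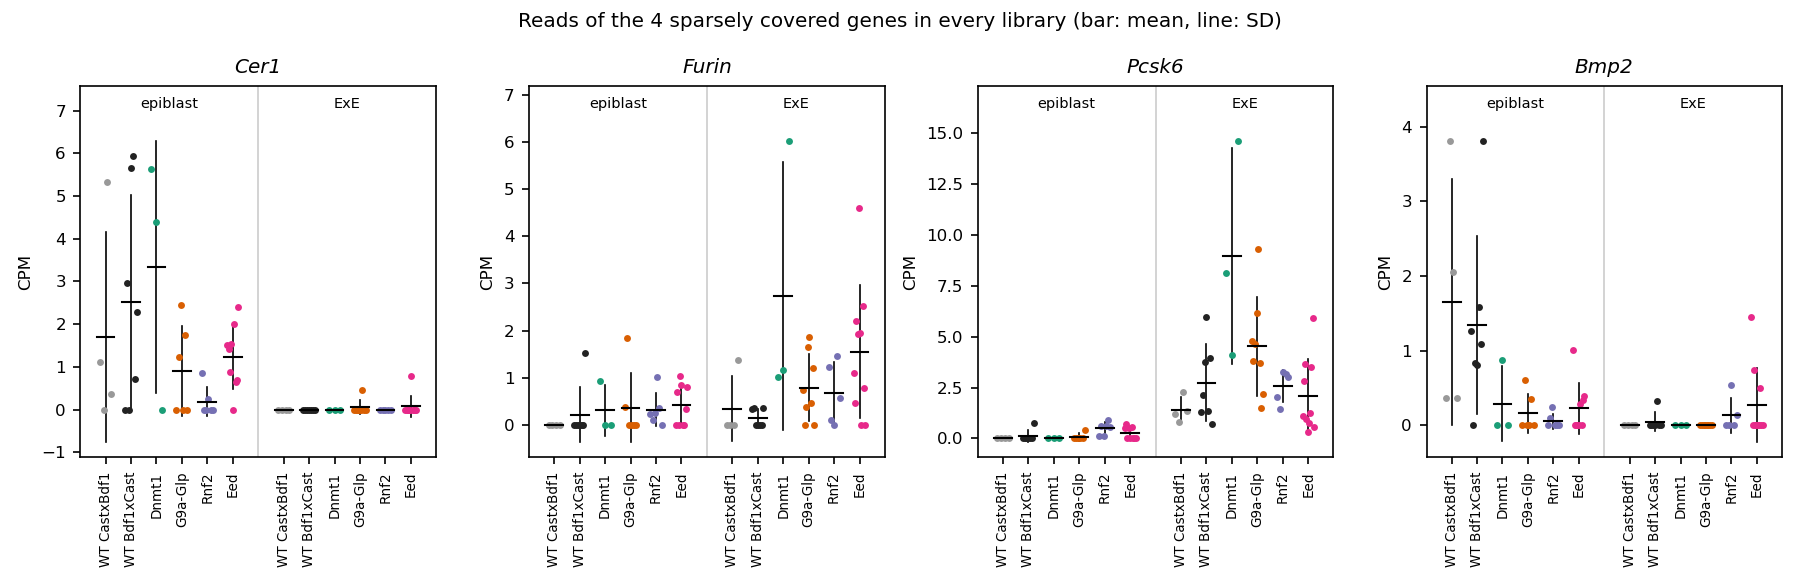
Level of the 4 sparsely covered genes in each library, in CPM, laid out by tissue and group, with points for libraries, bars for means and lines for 1 SD. In the wild type Cer1 reads come from epiblasts alone, Bmp2 reads from epiblasts but for 1 read and Pcsk6 reads from ExE but for 1 read, while some knockout libraries hold reads in the other tissue. Furin is highest in ExE libraries of Dnmt1 and Eed knockouts.

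Wild-type epiblasts differed among themselves in several of these genes at once. Lefty2 in Bdf1xCast embryos 1, 6, 7 and 8 was at 110, 271, 96.9 and 324 CPM, and in embryos 2, 3 and 4 at 0.330, 6.29 and 3.23 CPM. Tdgf1 was at 367, 985, 548 and 1125 CPM in the first 4 and at 172, 224 and 159 CPM in the other 3, and Bmp7 followed with 16.9, 34.4, 14.9 and 45.7 CPM against 0, 10.1 and 4.44 CPM. The summed level of 7 primitive streak and mesoderm markers (T, Mixl1, Mesp1, Fgf8, Wnt3, Gsc and Evx1) divided the embryos in the same way, with 401, 712, 374 and 1077 CPM against 22.8, 94.8 and 82.8 CPM. Lefty1 did not divide them so: it was at 0.422, 11.1, 0.363 and 27.4 CPM in the first 4 embryos and at 2.31, 2.52 and 16.1 CPM in the others. In the CastxBdf1 cross embryo 4 had the lowest streak sum (79.6 CPM against 346 to 434 CPM) and also the lowest Lefty2 of its group, 4.71 CPM, but embryo 2, with a streak sum of 394 CPM, had only 12.6 CPM. These groups of embryos were seen in the data and carry no test. They set the spread against which every epiblast knockout was compared, and streak sums in the knockouts ranged from 30.1 to 291 CPM (Rnf2), 53.3 to 479 (Eed), 36.8 to 324 (G9a-Glp) and 115 to 716 (Dnmt1).

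**Figure D3:**
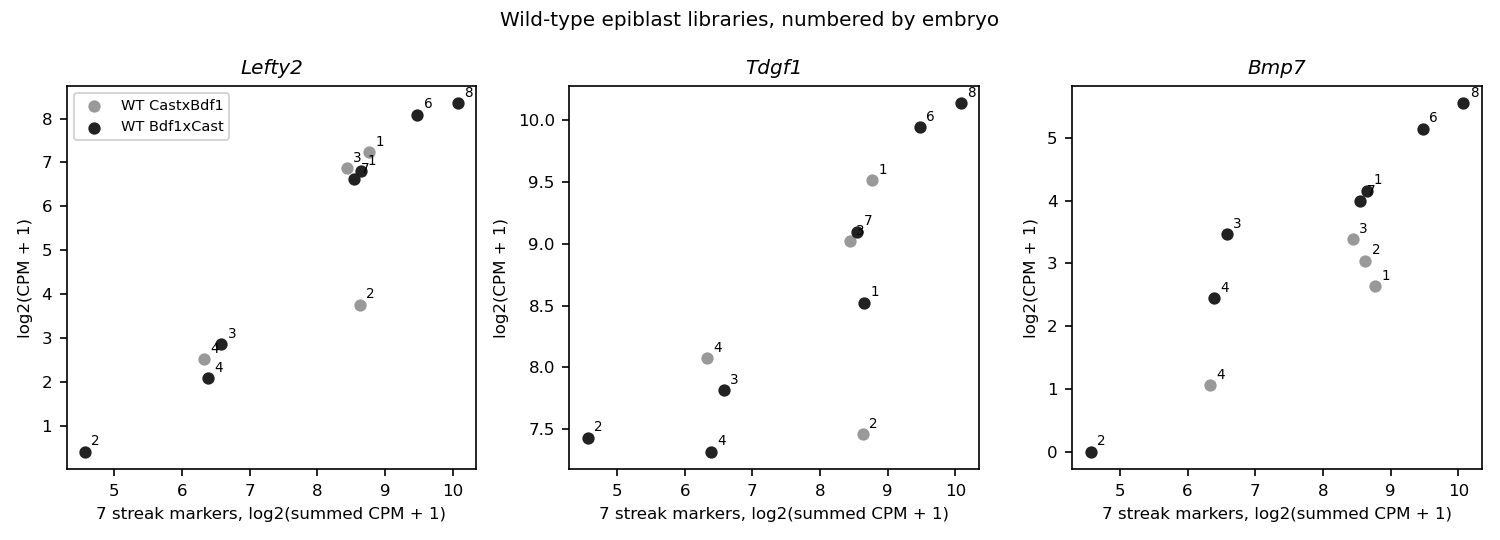
Lefty2, Tdgf1 and Bmp7 in the 11 wild-type epiblast libraries, as log2(CPM + 1), against the summed level of 7 primitive streak markers on the same scale. Each point is 1 embryo with its number, and the embryos with low streak sums (2, 3 and 4 of Bdf1xCast) have the lowest Lefty2 and Bmp7 of that cross.

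Nodal itself rose in the epiblast of both Polycomb knockouts. Rnf2 knockout epiblasts held 47.4 CPM at the lowest, 78.6 at the median and 85.5 at the highest, and 5 of 6 lay above every wild-type library (the log2 fold change was 1.63 ± 0.25, edgeR adjusted p = 0.000191). Eed knockout epiblasts held 32.8, 64.7 and 113 CPM, and 6 of 9 lay above every wild-type library (1.51 ± 0.29, edgeR adjusted p = 0.000547). In all fits that left out 1 library, 13 for Rnf2 and 16 for Eed, both calls were kept. In Dnmt1 epiblasts Nodal was at 61.4, 40.3 and 61.1 CPM, 2 of 3 above every wild-type library (1.07 ± 0.33, edgeR adjusted p = 0.0459). This call was at the edge of the threshold, and 9 of the 10 fits without 1 library lost it, with adjusted p up to 0.162. Only leaving out wild-type embryo 8, the highest control, kept it (1.33, adjusted p = 0.00109). In G9a-Glp epiblasts Nodal was at 23.9 to 42.9 CPM with a change of 0.42 ± 0.27 that did not pass (edgeR adjusted p = 0.247; 0.52 ± 0.31 and 0.246 without the 2 libraries whose targeted RNA was not low). Without wild-type embryo 8 it passed (0.68 ± 0.21, edgeR adjusted p = 0.0131). That was the only 1 of 13 fits without 1 library to call it, with adjusted p up to 0.580 in the others.

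These calls stand beside how many genes each knockout changed. In the epiblast, edgeR called 14.1% of all genes tested in Dnmt1 knockouts, 34.6% in G9a-Glp, 31.0% in Rnf2 and 35.7% in Eed. Of the 10 genes, the epiblast test called 3 of 6 tested in Rnf2 knockouts, 3 of 5 each in Eed and G9a-Glp knockouts and 1 of 6 in Dnmt1 knockouts. In ExE the knockouts changed 18.5% (Dnmt1), 15.2% (G9a-Glp), 22.2% (Rnf2) and 40.8% (Eed) of genes tested, and the members called were 0 of 4, 0 of 4, 1 of 2 and 3 of 3. At an unadjusted p under 0.05 edgeR gave 1 member in Dnmt1 ExE and 0 in G9a-Glp ExE, where DESeq2 also called 0 in both, and without the Dnmt1 ExE library whose Dnmt1 RNA was not low the count was again 0. Members with too few reads to be tested are described by their reads.

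**Figure D4:**
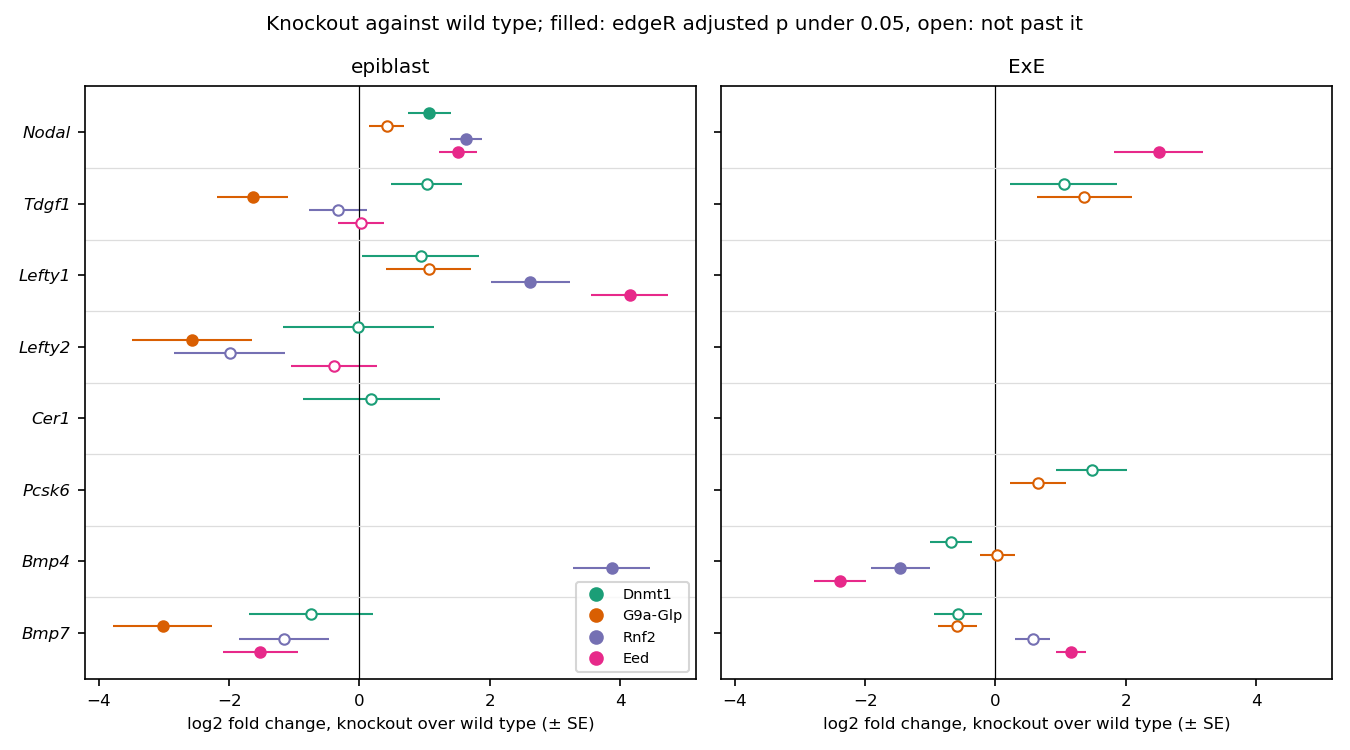
Log2 fold change of each tested gene in each knockout against wild-type Bdf1xCast, epiblast left and ExE right, with 1 SE. Filled points passed an edgeR adjusted p of 0.05. Lefty1 in Eed epiblast (4.15) and Bmp4 in Rnf2 epiblast (3.87) lie farthest to the right, and Bmp4 in Eed ExE lies at -2.38.

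The co-receptor Tdgf1 fell in G9a-Glp epiblasts. The 6 libraries held 59.8, 126, 292, 393, 118 and 37.2 CPM for embryos 1, 2, 3, 4, 5 and 7, and 4 of them were under 159 CPM, the wild-type minimum (-1.63 ± 0.54, edgeR adjusted p = 0.0274). This call was kept in 8 of 13 fits without 1 library, with adjusted p up to 0.0646 when wild-type embryo 6 was left out, and the call was lost without the 2 libraries whose targeted RNA was not low (-1.28 ± 0.58, adjusted p = 0.128). In Dnmt1 epiblasts Tdgf1 was at 1549, 1548 and 486 CPM, and 2 of 3 were above all wild-type libraries (1.03 ± 0.54, adjusted p = 0.236, not past the threshold). In Rnf2 and Eed epiblasts it ranged from 168 to 723 and from 303 to 917 CPM, within the wild-type range, with changes of -0.33 ± 0.44 and 0.02 ± 0.35 that did not pass (edgeR adjusted p = 0.597 and 0.964).

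Lefty1, which lies next to Lefty2 on chromosome 1, rose in both Polycomb knockouts. All 9 Eed epiblasts, with 28.4 CPM at the lowest, 128 at the median and 300.5 at the highest, were above all 7 wild-type epiblasts, whose median was 2.52 and highest 27.4 CPM (4.15 ± 0.59, a 17.7-fold difference, edgeR adjusted p = 3.59e-05). In Rnf2 epiblasts the range was 27.1 to 77.4 CPM, with 5 of 6 libraries above every wild-type library (2.62 ± 0.60, 6.15-fold, edgeR adjusted p = 0.00377). Every fit without 1 library kept both calls. The 7 wild-type epiblasts held 119 Lefty1 reads in all, the Eed epiblasts 3267 and the Rnf2 epiblasts 2750. In both comparisons Lefty1 thus passed the filter on low counts only through the group in which it was high. Lefty1 was at 24.4, 24.5 and 4.70 CPM in Dnmt1 epiblasts (0.94 ± 0.89, adjusted p = 0.540) and at 9.41 to 37.9 CPM in G9a-Glp epiblasts (1.06 ± 0.65, adjusted p = 0.222), both within or near the wild-type range. Without the 2 G9a-Glp libraries whose targeted RNA was not low it was 1.08 ± 0.77 (edgeR adjusted p = 0.331). Without wild-type embryo 8 the G9a-Glp difference passed (1.57 ± 0.59, edgeR adjusted p = 0.0405). This was the only 1 of 13 fits without 1 library to call it, with adjusted p up to 0.474 in the others.

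Lefty2 did not rise in any knockout. In G9a-Glp epiblasts it fell to 5.94 to 32.9 CPM, with a median of 23.7 against 96.9 CPM in the wild type (-2.56 ± 0.92, edgeR adjusted p = 0.0389). All 6 libraries lay within the wild-type range of 0.330 to 324 CPM, and 10 of 13 fits without 1 library lost the call, with adjusted p up to 0.0873 when wild-type embryo 6 was left out. Without the 2 libraries whose targeted RNA was not low the difference was -2.64 ± 1.17 (adjusted p = 0.118). Streak marker sums in these epiblasts were 36.8 to 324 CPM against 22.8 to 1077 CPM in the wild type, and their part in the lower Lefty2 and Tdgf1 was not tested. In Rnf2 epiblasts Lefty2 was at 19.9 to 41.3 CPM (-1.99 ± 0.85, adjusted p = 0.0859), and in Eed epiblasts at 67.3 to 173 CPM (-0.39 ± 0.66, adjusted p = 0.674). The Dnmt1 epiblasts held 216, 140 and 31.5 CPM (-0.02 ± 1.16, adjusted p = 0.994).

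The reads of the 2 antagonists are described by the share of Lefty1 among Lefty1 and Lefty2 reads. Levels cannot be compared between genes, so the share can be compared between libraries but does not give the balance of the 2 RNAs. The measure was chosen after these values had been seen, so it carries no test. In the 7 wild-type Bdf1xCast epiblasts the share ranged from 0.373% to 87.5%, with a median of 7.81%. Embryos 1, 6, 7 and 8, with the high streak sums, had 0.380%, 3.93%, 0.373% and 7.81%, and embryos 2, 3 and 4 had 87.5% (of only 8 reads), 28.6% (of 21) and 83.3% (of 48). The share was 50.3% to 74.1% in Rnf2 epiblasts (median 58.7%), 29.2% to 72.3% in Eed (60.7%), 22.7% to 68.5% in G9a-Glp (51.0%) and 10.2% to 14.9% in Dnmt1 epiblasts. All 4 knockouts thus lay within the wild-type range, Rnf2 above 5 of its 7 embryos. The genes are close copies of each other, so reads may have been placed on the wrong one.

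**Figure D5:**
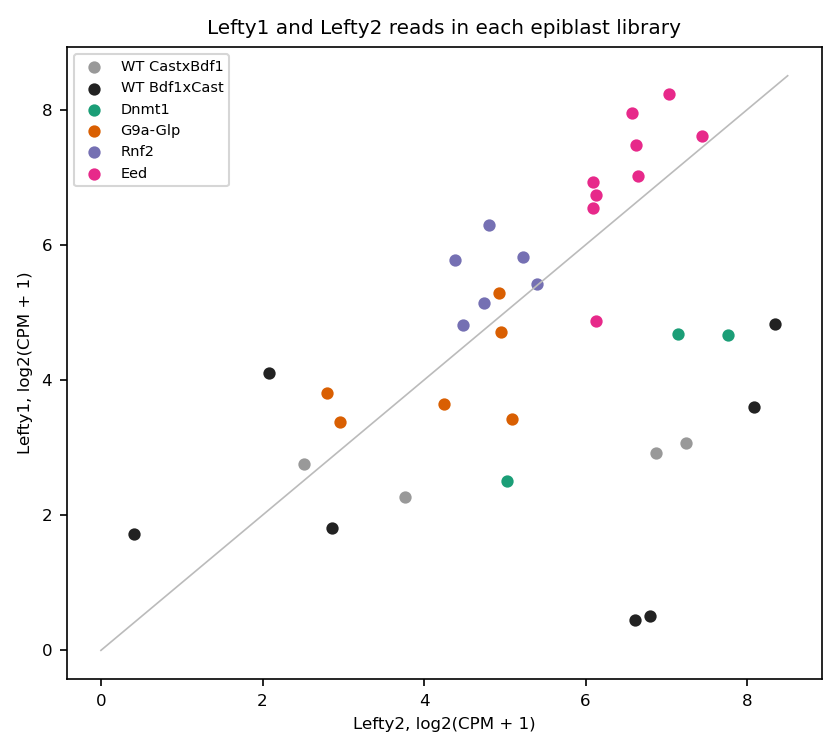
Lefty1 against Lefty2 in each of the 35 epiblast libraries, both as log2(CPM + 1), coloured by group; the grey line marks equal CPM of the 2 genes and sets no biological threshold. The 6 Rnf2 libraries and 8 of 9 Eed libraries lie on or above the line, and the 4 wild-type Bdf1xCast libraries with Lefty2 at 96.9 CPM or more and the 3 Dnmt1 libraries lie below it.

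The remaining Nodal regulators had few reads. Cer1 was at 0 to 5.93 CPM in wild-type Bdf1xCast epiblasts, with reads in 5 of 7, and at 0 to 0.850 CPM in Rnf2 epiblasts, where 2 of 6 libraries held a read although these were the deepest libraries (17 reads in all). Rnf2 Cer1 entered no test under the filter on low counts. Without that filter it was lower (-3.44 ± 1.07, edgeR adjusted p = 0.0299). Markers of the anterior visceral endoderm, the tissue that makes Cer1 (5 genes, Hhex, Dkk1, Lhx1, Hesx1 and Foxa2), summed to 5.29 to 30.4 CPM in Rnf2 and 11.6 to 219 CPM in wild-type epiblasts, none of them at 0 in the whole of either group, and their part was not tested. Furin was below 2 CPM in all epiblasts. In Dnmt1 ExE it was at 1.02, 1.17 and 6.02 CPM, each above the wild-type ExE maximum of 0.358 CPM, from 18 reads in all. Furin was not tested there under the filter on low counts, and without it the difference passed (3.63 ± 1.01, edgeR adjusted p = 0.0142; 4.01 ± 1.11 and 0.0119 without the library whose Dnmt1 RNA was not low). In Eed ExE Furin was at 0 to 4.59 CPM with 47 reads in 8 of 10 libraries, and the fit without the filter also called it higher (2.88 ± 0.88, adjusted p = 0.0144). Pcsk6 in Dnmt1 ExE was at 8.15, 4.09 and 14.6 CPM against 0.715 to 5.96 CPM in the wild type (1.48 ± 0.54, edgeR adjusted p = 0.0739, not past the threshold; 1.52 ± 0.65 and 0.152 without that library). In Rnf2 epiblasts 23 reads of Pcsk6 were counted, with reads in all 6 of these deep libraries (at most 0.901 CPM), and in Eed epiblasts 5 reads.

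In the ExE, Nodal rose in Eed knockouts. The 10 libraries held 0.782 CPM at the lowest, 4.47 at the median and 12.4 at the highest, with reads in every library, against 0 to 3.94 CPM with reads in 4 of 7 wild-type libraries (2.51 ± 0.68, edgeR adjusted p = 0.00575). Nodal passed the filter on low counts mainly through the Eed group, with 161 reads in all against 17 in the wild-type group. The 11 of 17 fits without 1 library in which Nodal passed the filter kept the call. In the others it was not tested, so they do not show whether the call holds without the library left out. Without wild-type ExE embryo 2, at 3.94 CPM the highest control, the change was 3.72. Only the highest of these 10 libraries, at 12.4 CPM, exceeded the lowest wild-type Bdf1xCast epiblast, at 11.6 CPM. Lefty1 showed the same direction, with 0.622 to 3.54 CPM in the 10 Eed ExE libraries, all above every wild-type ExE library (at most 0.344 CPM). Its 49 reads did not pass the filter, and the fit without the filter called it (3.46 ± 0.79, edgeR adjusted p = 0.00117). Visceral endoderm markers were also higher in Eed ExE, where their sum was 40.0 to 80.8 CPM against 12.8 to 28.6 CPM in the wild type with no overlap and with Sox17 and Gata6 at 0 in all 7 wild-type libraries. The anterior visceral endoderm markers summed to 1.14 to 7.73 CPM against 0 to 1.43 CPM. The part of these markers in the Nodal and Lefty1 reads was not tested.

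Bmp4 rose in the epiblast of Rnf2 knockouts and fell in the ExE of Eed knockouts, and in Rnf2 ExE it passed the test as lower, a call that rested on few libraries. In Rnf2 epiblasts it was at 3.78 CPM in the lowest, 7.29 at the median and 24.4 in the highest library, all 6 above the wild-type maximum of 1.21 CPM (3.87 ± 0.59, 14.6-fold, edgeR adjusted p = 0.000179), and every fit without 1 library kept the call. The 7 wild-type epiblasts held 12 Bmp4 reads in all and the 6 deeper Rnf2 libraries 564. Bmp4 thus passed the filter on low counts only through the group in which it was high. Some trophoblast markers were also higher in Rnf2 epiblasts. Plet1, the gene tested from a list of ectoplacental cone and giant cell markers, was at 13.5 to 366 CPM against 1.98 to 15.2 CPM in the wild type (4.18, edgeR adjusted p = 0.000638), while Tpbpa and Prl3d1 of that list were at 0. The ExE marker Elf5 was at 0.246 to 50.0 CPM against 0 to 3.81 CPM, but the 7 ExE markers summed to 35.7 to 135 CPM against 41.3 to 259.9 CPM, and of 3 tested Eomes fell and 0 rose. Of 5 decidua and maternal blood markers, summing to 17.96 to 40.8 CPM against 4.75 to 16.2 CPM, Cryab was called higher (edgeR adjusted p = 0.00011), Dcn was not, and Prl8a2 and Hbb-bt were at 0. The part of these tissues in the Bmp4 reads was not tested. In Eed epiblasts Bmp4 was at 0.571 to 6.18 CPM from 63 reads, with 8 of 9 libraries above the wild type, and was not tested under the filter. Without the filter the difference was 1.85 ± 0.69 (edgeR adjusted p = 0.0550), and with all Bdf1xCast groups in one fit it passed (1.84 ± 0.58, adjusted p = 0.0127). Dnmt1 epiblasts had 2.34, 5.26 and 4.03 CPM, also above every wild-type epiblast and from 17 reads; without the filter the difference did not pass (2.16 ± 1.07, edgeR adjusted p = 0.326), and with all Bdf1xCast groups in one fit it passed (2.17 ± 0.74, adjusted p = 0.0366). G9a-Glp epiblasts remained at 0 to 1.63 CPM.

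In ExE, where Bmp4 is normally made, it fell in Eed knockouts to 2.34 CPM at the lowest, 10.9 at the median and 37.2 at the highest, and 8 of 10 libraries lay below every wild-type library (-2.38 ± 0.40, 5.22-fold lower, edgeR adjusted p = 7.55e-05). All 17 fits without 1 library kept this call. ExE markers were lower in the same libraries, with a sum of 342 to 656 CPM against 539 to 1133 CPM in the wild type and 3 of 7 markers called lower, and their part in the lower Bmp4 was not tested. In Rnf2 ExE the libraries held 19.6, 2.83, 41.7, 31.2 and 37.2 CPM, 2 of 5 below the wild-type minimum of 27.7 CPM (-1.46 ± 0.45, edgeR adjusted p = 0.0289). This call was lost without Rnf2 embryo 2 or without Rnf2 embryo 6 (adjusted p up to 0.0730), and without the 3 libraries whose Rnf2 RNA was not low (-1.84 ± 0.70, 0.144). Without these 3 libraries and without the filter on low counts it passed (-1.84 ± 0.32, edgeR adjusted p = 1.25e-06), from 2 knockout libraries. These were embryos 4 and 7, at 2.83 and 37.2 CPM. Embryo 7 lay within the wild-type range of 27.7 to 93.8 CPM, so the lower level in this fit rests on embryo 4. Bmp4 in Dnmt1 ExE (33.1, 59.0 and 59.4 CPM) and in G9a-Glp ExE (31.0 to 124.9 CPM) overlapped the wild type, with changes of -0.68 ± 0.32 (edgeR adjusted p = 0.160; -0.47 ± 0.36 and 0.457 without the library whose Dnmt1 RNA was not low) and 0.03 ± 0.27 (adjusted p = 0.953).

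The difference between the tissues was itself tested, as the knockout change in ExE minus the knockout change in epiblast. For Bmp4 it was -5.30 ± 0.81 in Rnf2 (edgeR adjusted p = 0.000124, beside 6.82% of all genes called) and -4.15 ± 0.77 in Eed knockouts (adjusted p = 0.00025, beside 15.9%). With a block for the embryo that gave both tissues, the values were -4.60 (adjusted p = 0.000926) and -4.39, and without the 3 doubtful Rnf2 ExE libraries the Rnf2 value was -5.63 ± 1.02 (adjusted p = 0.00334). For Eed embryos above 6 the numbers in the sample titles and the embryo labels differ. The block used the embryo labels, and with Eed embryos 1 to 6 alone the Eed value was -4.35 ± 0.57 (adjusted p = 3.42e-05). Every fit without 1 library kept both calls. In Dnmt1 knockouts the Bmp4 difference was -2.72 ± 0.70 and did not pass (edgeR adjusted p = 0.115, with 0 of 8 members called beside 0.247% of all genes, 1 of them at an unadjusted p under 0.05). It passed with the block by embryo (-2.75, adjusted p = 0.0452), in DESeq2 (adjusted p = 0.0188) and without the filter on low counts (0.0304), but not without the ExE library whose Dnmt1 RNA was not low (-2.51 ± 0.71, 0.256). In G9a-Glp knockouts it was -0.28 ± 0.71 (adjusted p = 0.856).

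Bmp7 also changed by tissue. In Eed ExE all 10 libraries, with 33.5 to 62.6 CPM and a median of 40.5, were above all wild-type libraries at 8.89 to 25.4 CPM (1.16 ± 0.23, 2.23-fold, edgeR adjusted p = 0.000392). In Rnf2 ExE Bmp7 was at 22.6 to 35.0 CPM, 2 of 5 libraries above the wild type (0.57 ± 0.26, adjusted p = 0.133; 0.54 ± 0.38 and 0.442 without the 3 libraries whose Rnf2 RNA was not low). In the epiblast it went the other way. Bmp7 fell in G9a-Glp epiblasts to 0.387 CPM at the lowest, 2.10 at the median and 6.11 at the highest, against 14.9 CPM at the wild-type median (-3.02 ± 0.76, 8.10-fold lower, edgeR adjusted p = 0.00535), and all 13 fits without 1 library and the fit without the 2 libraries whose targeted RNA was not low (-3.26 ± 0.93, adjusted p = 0.0199) kept the call. With the replicate number as a block the call was lost, as given in the last section. The wild-type group still overlapped, because embryo 2 had no read and embryo 4 had 4.44 CPM. Streak marker sums had medians of 178 CPM in G9a-Glp and 113 CPM in Eed epiblasts, against 374 CPM in wild-type Bdf1xCast epiblasts. Their part in the lower Bmp7 of both knockouts was not tested. In Eed epiblasts Bmp7 was at 1.26 to 15.1 CPM (-1.52 ± 0.58, edgeR adjusted p = 0.0443), a call that 11 of 16 fits without 1 library lost, with adjusted p up to 0.121 without wild-type embryo 6 and 0.0989 without wild-type embryo 8. The tissue difference of the Bmp7 change was 2.70 ± 0.61 in Eed (edgeR adjusted p = 0.00229; 2.55 with the block by embryo, adjusted p = 0.00827, and 2.69 with 0.0141 when the block held Eed embryos 1 to 6 alone).

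In G9a-Glp knockouts the tissue difference passed for 2 of 7 members, beside 6.83% of all genes, and neither held in most alternatives. It was 3.01 ± 0.95 for Tdgf1 (edgeR adjusted p = 0.0485) and 2.47 ± 0.78 for Bmp7 (adjusted p = 0.0486). With the block by embryo the adjusted p were 0.0647 and 0.184, and of 28 fits without 1 library 11 kept Tdgf1 and 8 kept Bmp7. Without the 2 epiblast libraries whose targeted RNA was not low the adjusted p were 0.123 and 0.0725. Tdgf1 in G9a-Glp ExE was at 1.10 to 26.9 CPM against 0 to 6.67 CPM in the wild type (1.36 ± 0.73, edgeR adjusted p = 0.211), and the library at 26.9 CPM, embryo 8, had a streak marker sum of 103 CPM where the other 7 had 8.87 to 55.2 CPM. Without that library the tissue difference of Tdgf1 did not pass (adjusted p = 0.119).

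Bmp2 reads were few in every epiblast group, and no difference was called. In ExE there were 8 reads in 3 of 10 Eed libraries, 2 in Rnf2 and 1 in wild-type Bdf1xCast. Wild-type Bdf1xCast epiblasts held 19 reads in 6 of 7 libraries (0 to 3.81 CPM), Rnf2 epiblasts 3 reads in 2 of 6, Eed epiblasts 5 reads in 4 of 9, G9a-Glp epiblasts 2 reads in 2 of 6 and Dnmt1 epiblasts 1 read in 1 of 3. It was not tested under the filter, and without it the adjusted p by edgeR were 0.0505 in Rnf2 (-3.91 ± 1.32), 0.0909 in Eed (-2.36 ± 0.99), 0.122 in G9a-Glp (-2.77 ± 1.22; 0.204 without the 2 libraries whose targeted RNA was not low) and 0.467 in Dnmt1.

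Other genes of the 2 pathways were read from lists of receptors, Smads, antagonists and known targets without the members (28 Nodal pathway genes, 26 in the table, and 40 Bmp pathway genes, 36 in the table). In Rnf2 epiblasts 4 of 18 Nodal pathway genes tested rose and 5 fell, with a median log2 fold change of -0.07 beside -0.0045 over all genes. In Eed epiblasts 3 of 18 rose and 4 fell (median -0.10, all genes 0.01). In G9a-Glp epiblasts 4 of 18 rose and 2 fell (0.14, all genes 0.01), and in Dnmt1 epiblasts 2 of 20 rose and 0 fell (0.37, all genes -0.01). Beside these counts, both directions together, 31.0% of all genes tested were called in Rnf2, 35.7% in Eed, 34.6% in G9a-Glp and 14.1% in Dnmt1 epiblasts. Gdf3, a TGF-beta ligand that can act with Nodal, rose in all 4, most in Rnf2 epiblasts (168 ± 84.1 against 2.13 ± 1.49 CPM, edgeR adjusted p = 3.5e-07). Mixl1, a streak homeobox gene, fell in Rnf2 (2.77 ± 3.82 against 101.8 ± 95.9 CPM, edgeR adjusted p = 0.000944) and Eed epiblasts (9.13 ± 18.9 CPM, adjusted p = 0.00156). Foxa2, an endoderm and node factor, fell in Rnf2 and G9a-Glp epiblasts (edgeR adjusted p = 0.0138 and 0.0382), and Fst, a secreted Activin inhibitor, in Eed and G9a-Glp epiblasts (0.000195 and 0.0241). Without the 2 G9a-Glp epiblasts whose targeted RNA was not low, 4 of 19 Nodal pathway genes rose and 0 fell there, Gdf3 kept its call (2.77 ± 0.57, edgeR adjusted p = 0.00317), and Foxa2 (0.0971) and Fst (0.0907) lost theirs. Since the 4 comparisons share their controls, a direction seen in all of them is not independent evidence.

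In the Bmp pathway list, 1 of 18 genes tested rose and 4 fell in Rnf2 epiblasts, 2 of 17 rose and 3 fell in Eed, 2 of 16 rose and 4 fell in G9a-Glp, and 0 of 16 changed in Dnmt1. List medians were -0.36, -0.22, -0.43 and -0.02. The shares of all genes called, both directions together, were 31.0%, 35.7%, 34.6% and 14.1% in the same order. Bmp8b, a ligand of the ExE, rose in Rnf2 and Eed epiblasts (21.8 ± 13.9 and 10.3 ± 10.4 against 2.57 ± 1.51 CPM, edgeR adjusted p = 0.000111 and 0.00804) and fell in their ExE (184 ± 37.4 and 201 ± 55.7 against 249 ± 63.0 CPM, adjusted p = 0.0480 and 0.0156). Chrd, which encodes the Bmp antagonist chordin, fell in Rnf2, Eed and G9a-Glp epiblasts (log2 fold changes of -2.60 ± 0.54, -2.03 ± 0.56 and -2.87 ± 0.64, edgeR adjusted p = 0.00187, 0.00792 and 0.00219). Prdm1, a germ cell regulator that Bmp signalling induces, rose in G9a-Glp epiblasts (19.8 ± 3.39 against 1.25 ± 1.36 CPM, edgeR adjusted p = 2.8e-05) and G9a-Glp ExE (11.1 ± 3.28 against 0.804 ± 1.17 CPM, adjusted p = 8.94e-05). Without the 2 doubtful G9a-Glp epiblasts, Chrd and Prdm1 kept their epiblast calls (edgeR adjusted p = 0.00594 and 0.000298), with 1 of 17 Bmp pathway genes higher and 2 lower. Without the 3 doubtful Rnf2 ExE libraries Bmp8b lost its ExE call (-0.59 ± 0.26, adjusted p = 0.210).

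In ExE, Id3, a direct transcriptional target of Bmp signalling, rose in Eed (63.7 ± 22.9 against 6.03 ± 2.59 CPM, log2 fold change 3.22 ± 0.26, edgeR adjusted p = 1.65e-08) and Rnf2 knockouts (28.9 ± 10.4 CPM, 2.23 ± 0.29, adjusted p = 8.94e-05; 2.56 ± 0.34 and 0.0015 without the 3 libraries whose Rnf2 RNA was not low). Bmp4 lay below every wild-type library in 8 of these 10 Eed libraries and in 2 of these 5 Rnf2 libraries. Of 20 Bmp pathway genes tested in ExE, 4 rose and 1 fell in Eed, 1 and 1 in Rnf2, 1 and 1 in G9a-Glp and 0 changed in Dnmt1 knockouts. Of the Nodal pathway genes, 2 of 10 rose and 2 fell in Eed ExE, 2 of 10 and 1 in Rnf2, 2 of 9 and 0 in G9a-Glp and 1 of 10 and 1 in Dnmt1. Beside the counts of both lists, 40.8% of all genes tested were called in Eed, 22.2% in Rnf2, 15.2% in G9a-Glp and 18.5% in Dnmt1 ExE. Pmepa1, a target and inhibitor of TGF-beta signalling, rose in Eed (16.5 ± 4.88 against 3.17 ± 2.38 CPM, edgeR adjusted p = 2.72e-05), Rnf2 and G9a-Glp ExE. Eomes, which specifies trophoblast and is also counted among the ExE markers above, fell in Eed (34.7 ± 19.7 against 115 ± 27.6 CPM, edgeR adjusted p = 8.45e-06) and Rnf2 ExE (68.5 ± 29.4 CPM, adjusted p = 0.0381). In Rnf2 ExE without the 3 doubtful libraries neither Eomes (-1.06 ± 0.39, edgeR adjusted p = 0.137) nor Pmepa1 (1.63 ± 0.55, adjusted p = 0.101) passed, and 1 of 10 Nodal and 1 of 21 Bmp pathway genes rose and 0 fell. In Dnmt1 ExE without the doubtful library 0 of 10 and 0 of 21 changed.

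Reads of the maternal and paternal alleles showed no parental bias of these genes. Members entered with 10 or more reads in 3 or more libraries per group, which left 5 in wild-type epiblast and 2 in ExE, and 0 were called for parent of origin by edgeR (beside 0.319% and 0.844% of all genes), with 0 at an unadjusted p under 0.05 and 0 by limma. More members were called for strain. For Tdgf1 the CAST allele gave 22.2% ± 6.21 of reads (SD, n = 4) when CAST was the mother and 22.1% ± 6.96 (n = 7) when CAST was the father (edgeR adjusted p = 9.72e-11). In epiblast 3 of 5 members were called for strain, all toward BDF1, beside 42.9% of all genes. The others were Lefty2, with a CAST share of 34.4% ± 10.8 (n = 4) and 43.4% ± 3.92 (n = 5; edgeR adjusted p = 0.00216), and Lefty1, with 26.9% ± 16.3 (n = 4) and 41.9% ± 7.33 (n = 3; adjusted p = 0.0175). Nodal was balanced, with CAST shares of 51.8% ± 3.61 and 52.1% ± 9.12. In ExE, Bmp4 had a CAST share of 46.9% ± 5.81 (n = 4) and 45.0% ± 5.85 (n = 7; edgeR adjusted p = 0.0461, 1 of 2 members beside 49.1% of all genes), which limma did not call.

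No knockout changed the allelic share of a tested member by edgeR or limma. The counts were 0 of 2 to 0 of 5 tested in each of the 8 comparisons, with 0 to 2 at an unadjusted p under 0.05. All genes were called at 0.908% and 0.856% in Dnmt1 epiblast and ExE, 1.79% and 1.1% in G9a-Glp, 0.696% and 0.922% in Rnf2, and 1.06% and 2.65% in Eed. The nearest was Bmp7 in Rnf2 ExE, where the CAST, and so paternal, share was 60.7% ± 6.69 (SD, n = 5) against 42.1% ± 7.24 in the wild type (n = 7), with no overlap between 55.2% to 72.1% and 30.0% to 50.7% (edgeR adjusted p = 0.0844). The 2 Rnf2 libraries whose Rnf2 RNA was below the second-lowest, though not the lowest, wild-type library had 55.2% and 58.9%. Against the same controls the mean CAST share of Bmp7 in ExE was also higher in the other knockouts. It was 54.7% ± 8.46 in Dnmt1, 52.3% ± 9.43 in G9a-Glp and 52.9% ± 7.91 in Eed (edgeR adjusted p = 0.730, 0.619 and 0.277). The direction was thus not particular to Rnf2. The rises of Nodal and Lefty1 in Polycomb epiblasts came from both alleles: the CAST share of Nodal was 49.6% ± 4.16 in Rnf2 (n = 6) and 46.3% ± 9.28 in Eed (n = 9), and that of Lefty1 was 45.7% ± 14.7 and 50.9% ± 7.45.

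Across the 12 group means of log2(CPM + 1), the genes with the pattern most like that of Nodal, among 9399 genes of sufficient level, were Chst15, Pla2g10 and Fgf15 (Pearson r = 0.99, 0.99 and 0.98). For Lefty2 they were Ube2r2, Pde4b and Tdgf1 (r = 0.99, 0.98 and 0.98), for Cer1 Apln, B3gnt9 and Pcdh7 (0.98, 0.97 and 0.97), and for Bmp4 LOC105245869, Aard and Ubash3b (0.98 each). These values describe 12 points, 6 of epiblast and 6 of ExE, and carry no test.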

How the data were processed

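The authors deposited 1 table with a read count, an allelic ratio and an allelic score for 30546 RefSeq genes (mm10) in each of 72 libraries, and all value columns were matched to samples by name. Libraries were made with Nextera XT from SMART-Seq v4 cDNA, per the labels' protocols. The submitters' processing notes name STAR 2.5.0 and HTSeq without a role; the polymorphism set, filters and use of strand are not given in the sources used here, so overlapping genes cannot be told apart. Per the deposited notes, the count is the number of reads over BDF1 and CAST polymorphisms, without normalization, and blank cells were read as 0. The deposited ratio is the CAST share minus 0.5, rounded. The deposited score is a signed -log10 binomial p-value. The CAST reads of each gene were recovered as the whole number that fitted both (712272 of 712373 scored values matched within 0.003, 99.986%). For 3276 values at the limit of the score, with 7.39% of reads, the rounded ratio was used. The bisulfite sample was not analysed here.

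CPM is the count scaled to the library total. Comparisons were made with edgeR 4.0.16 (R 4.3.3): TMM scaling, filterByExpr on low counts, the quasi-likelihood test, two-sided, and Benjamini-Hochberg adjustment over all genes tested at a threshold of 0.05. SE is the fold change divided by the root of the F statistic. Each fit held only the groups compared, and tissue differences of a knockout change were interaction terms. Allelic tests used maternal and paternal reads with a term per library. DESeq2 1.42.0, limma 3.58.1, other scalings, no filter, a replicate block, sex, all groups and leaving out each library were tried, and the scripts were tested on simulated data. Replicates are separate embryos. The tissues of one embryo pair the tissue comparisons by the embryo number in the labels: deviations from the group means of the same embryo had a correlation of 0.03 to 0.41 in Bdf1xCast and 0.05 to 0.33 in CastxBdf1, and the block by embryo is printed where it changed a call. Library totals (1141414 to 17653087 reads) and the spread among embryos both bear on the precision. The floors cover counting error only, while SE and SD include the spread among embryos.

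The members and lists were chosen with earlier results of these data known. Named besides the members are the targeted genes, up to 2 called genes in each direction per pathway list and knockout with the largest changes, not all of which are reported here, and the 3 genes most like Nodal, Lefty2, Cer1 and Bmp4. RefSeq promoters were matched by symbol for 6 of the 10 members.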

Additional observations from a re-analysis of the deposited data

Results flagged for a closer look

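Nodal in wild-type Bdf1xCast epiblast embryo 8 was at 51.83 CPM, far above the other 6 libraries of its group (11.6 to 24.1 CPM). The library also had the highest visceral endoderm and streak marker sums of that group (502 and 1077 CPM), and their part in its Nodal level was not tested. Tdgf1 in G9a-Glp ExE embryo 8 was at 26.87 CPM, far above the other 7 libraries of its group. A lone high or low library is picked out by chance in about 1 in 20 groups, and 2 of 37 groups tested were picked out.

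The change in ExE differed from the change in epiblast, by the interaction test, for Bmp4 in Rnf2 (-5.297 on the log2 scale) and Eed knockouts (-4.155), and for Bmp7 in Eed knockouts (2.703). It also passed for Tdgf1 (3.015) and Bmp7 (2.474) in G9a-Glp knockouts, where the block by embryo did not keep either call (edgeR adjusted p = 0.0647 and 0.184).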

How the results depend on the processing

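Of 283 counts of members called in fits that left out 1 library, 240 were within 1.5 times the main count. Their ranges were 0 to 1 for Dnmt1 epiblast, Dnmt1 ExE, the Dnmt1 tissue difference, Rnf2 ExE and strain in ExE, 1 to 4 for G9a-Glp epiblast, 0 to 2 for the G9a-Glp tissue difference, 3 to 4 for Rnf2 epiblast, and 2 to 3 for Eed epiblast, Eed ExE and strain in epiblast. The range was 3 to 3 and 6 to 6 for the tissue comparisons of Bdf1xCast and CastxBdf1, 1 to 1 and 2 to 2 for the Rnf2 and Eed tissue differences, and 0 to 0 for the others.

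Under the other settings, counts moved as follows. Without the filter on low counts they were 1 in Dnmt1 ExE (0 with it), 5 in Rnf2 epiblast (3), 5 in Eed ExE (3), 8 between the Bdf1xCast tissues (3) and 1 in the Dnmt1 tissue difference (0), because more members were tested or the genes tested differed. With library totals alone they were 1 in Dnmt1 ExE and 1 in the G9a-Glp tissue difference (2). With all Bdf1xCast groups in one fit they were 2 in Dnmt1 epiblast (1) and 5 in Rnf2 epiblast. With sex as a covariate they were 1 in G9a-Glp ExE (0), 2 in Rnf2 ExE (1) and 1 in the G9a-Glp tissue difference. DESeq2 gave 1 in the Dnmt1 tissue difference, and limma gave 0 for strain in ExE (1). Without the libraries whose targeted RNA was not low, a setting added after the data were seen, counts were 1 in G9a-Glp epiblast (3), 0 in Rnf2 ExE (1) and 0 in the G9a-Glp tissue difference (2); with the filter on low counts also left out, they were 3, 1 and, in Dnmt1 ExE, 1. The cause of these moves was not tested beyond the fewer samples or genes each setting holds.

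Knockout and wild-type embryos share replicate numbers, but same-numbered libraries did not deviate together (correlations from -0.356 to 0.344), and no group had every library correlate best with its own number. With the number as a replicate block, counts were 3 in Dnmt1 epiblast (1), 2 in Dnmt1 ExE (0), 1 in G9a-Glp ExE (0), 0 in Rnf2 ExE (1), 1 in the Dnmt1 and 0 in the G9a-Glp tissue difference, 2 in Eed epiblast, where Bmp7 was lost (edgeR adjusted p = 0.293), and 2 in G9a-Glp epiblast, where none of the 3 members called without it was called with it. There Lefty2 turned to 0.21 (edgeR adjusted p = 0.900), Bmp7 was at -1.91 (0.0835) and Tdgf1 at -1.06 (0.191), while Nodal (0.78, 0.0182) and Lefty1 (2.48, 0.0118) were called. With the block by embryo within genotype, added later, the tissue differences had 1 (Dnmt1) and 0 (G9a-Glp) members. Library totals moved the median of all genes by 0.21 (Dnmt1 epiblast), 0.25 (Dnmt1 ExE), 0.16 (Eed epiblast) and 0.17 (Eed ExE) on the log2 scale, and the share of higher calls from 49.2% to 71.3%, 46.2% to 72.5%, 53.8% to 72.1% and 55.6% to 74.1%. DESeq2 called 110 genes in the Dnmt1 tissue difference (28 by edgeR; 22.7% against 10.7% higher), 1167 in that of G9a-Glp (747), and 22 and 252 between the crosses in epiblast and ExE (1 and 101; 18.2% against 0% higher in epiblast). Few reads limit Cer1, Furin, Pcsk6 and Bmp2 in every group.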
